A study of Mus musculus with 4 samples.

Results

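The cadherins examined here are 10 genes, Cdh1, Cdh2, Cdh3, Cdh4, Cdh5, Cdh6, Cdh10, Cdh11, Cdh13 and Cdh19, of 18193 genes measured on Affymetrix arrays in 4 mouse melanocyte lines. They were taken by name, with all 23 probe sets that the platform annotation assigns to 1 of these genes alone. A probe set is a group of short probes read as 1 value, and no probe set of a member was shared with another gene. Lines 9v, 10d, 13d and 14d are immortalized melanocyte cultures from the skin of C57BL/6J pups aged 3 days, either wild-type (WT) or bcat*, which carry a stable, transcriptionally active mutant of β-catenin in the melanocyte lineage. All were grown to 80% confluency in Ham's F12 with 10% serum and 200 nM TPA, a phorbol ester that melanocytes need in culture, and each line was hybridised to 1 array.

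Line 9v is WT and line 10d is bcat* in both the sample labels and the article. Line 13d is bcat* and line 14d WT in the labels, while the article's methods give the opposite, so each line is given by name and both readings are used where genotypes are compared. The labels give 9v and 10d as male and 13d and 14d as female, whereas the methods describe male mice. On the arrays, the X-inactivation transcript Xist had an intensity of 4 in 9v and 10d, 2124 in 13d and 1768 in 14d, and the Y-linked Eif2s3y had 690 in 9v, 1088 in 10d and 13 in both 13d and 14d, as the labelled sexes would have it. The RNA integrity number lay between 9.7 and 9.9. The deposited intensities were whole numbers on a linear scale, with a median of 7 in 10d and of 8 in the other lines. A gene was taken as detected at 32 or more, which 35.8% to 36.1% of probe sets reached. All 11 measured melanocyte markers were detected. Beside 40.1% of the genes detected in any line, 3 of these 11 spanned at least 2-fold. These were Oca2, with 12182 in 9v, 16985 in 10d, 4710 in 13d and 5931 in 14d, Gpr143, with 6108, 6313, 2739 and 5089 in that order, and Slc45a2, with 12978, 21395, 14344 and 9963. Of 7 immune cell markers, 1 was detected, Csf1r, with 34 to 51. With 1 array per line there is no error for a line, and a fold between lines is a description without a test. In bulk RNA, fewer cells that express a gene and less RNA per cell cannot be told apart.

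Cadherins are calcium-dependent adhesion proteins that join neighbouring cells by binding a cadherin on the next cell. Classical type I members (Cdh1, Cdh2, Cdh3, Cdh4) and type II members (Cdh5, Cdh6, Cdh10, Cdh11, Cdh19) span the membrane, and their cytoplasmic tails bind β-catenin or its relative γ-catenin, and through them α-catenin and actin. Cdh13 is held in the membrane by a lipid (GPI) anchor and has no such tail. In the skin, melanocytes contact keratinocytes mainly through E-cadherin (Cdh1) and, in the hair follicle, through P-cadherin (Cdh3), and a gain of N-cadherin (Cdh2) is known from melanoma.

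Of the 10 cadherins, 4 were detected in at least 1 line, namely Cdh1, Cdh2, Cdh13 and Cdh19, and 6 were in none. Cdh2 and Cdh19 were detected in all lines. Cdh1 was detected in line 13d alone, and Cdh13 was bright in line 14d, lower in 9v and just above the detection level in 10d and 13d by its brightest probe set. Over the 4 lines, 3 of the 4 detected members spanned at least 2-fold, beside 40.1% of the 9415 genes detected in any line.

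**Figure D1:**
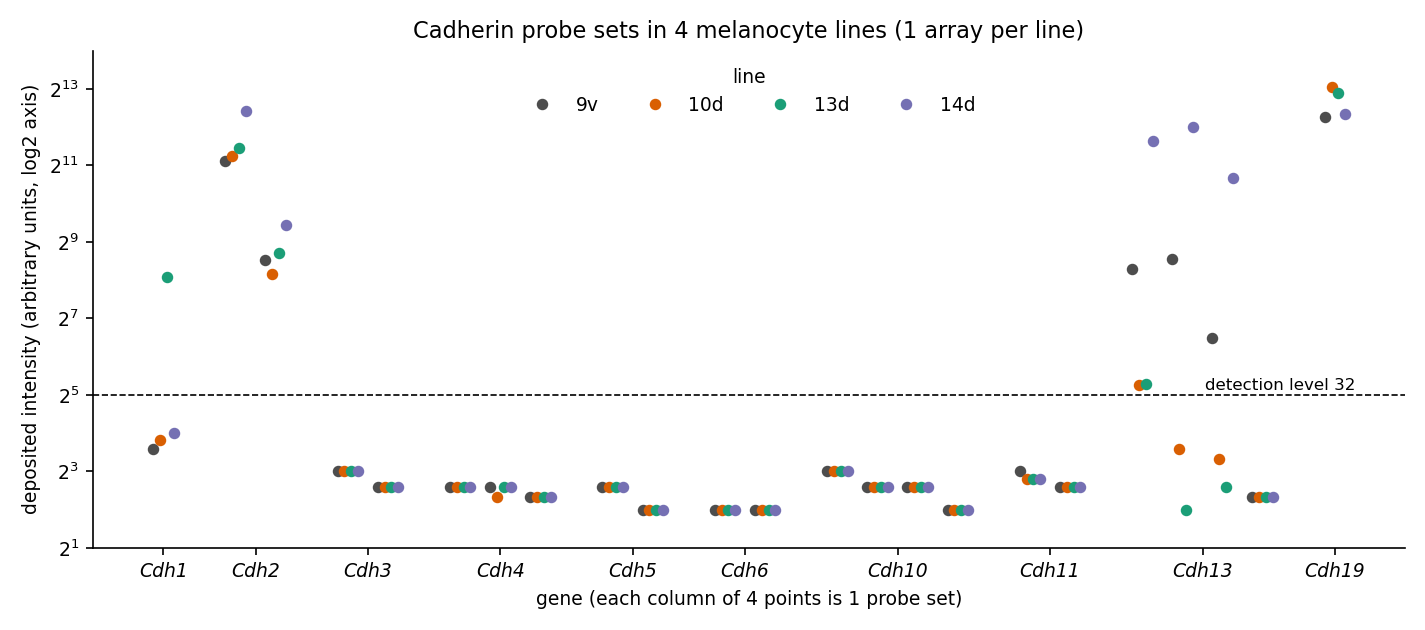
Deposited intensity (log2 axis) of all 23 cadherin probe sets, where each column of 4 points is 1 probe set and each point 1 array, coloured by line, and the dashed line marks the detection level of 32. Cdh2 and Cdh19 lie above that level in every line, Cdh1 in 13d only, and 15 probe sets of 6 other cadherins lie between 4 and 8. Heights of different probe sets are not comparable.

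Among the type I cadherins, Cdh1 encodes E-cadherin, the adhesion molecule of epithelia. Its single probe set had an intensity of 12 in 9v, 14 in 10d, 272 in 13d and 16 in 14d. Line 13d alone was above the detection level, and the other lines lay close together beneath it. Line 13d was thus at least 8.5-fold brighter than each of the other lines, counted to the detection level of 32. Of the genes detected in any line, 397 (4.22%) had a larger span than Cdh1 on this scale. Because Cdh1 is also a gene of keratinocytes, the markers of that cell type were examined. The study's methods state that keratinocytes do not grow in this medium and that fibroblasts were selected against with G418. Of 9 measured keratinocyte markers, 1 was detected (Krt10, with 148 in 9v, 268 in 10d, 156 in 13d and 106 in 14d), and the defining keratins Krt5 and Krt14 had 10 and 4 in line 13d. The summed intensity of the 9 markers, undetected ones included, was 200 in line 13d and ranged from 150 to 312 in the others. A part of keratinocytes in the level of Cdh1 was not tested.

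Cdh2, the gene of N-cadherin, was measured by a pair of probe sets and detected by both in every line. The brighter one had an intensity of 2214 in 9v, 2422 in 10d, 2823 in 13d and 5458 in 14d. The other had 369 in 9v, 285 in 10d, 422 in 13d and 695 in 14d. Line 14d was highest in both, at 2.47, 2.25 and 1.93 times 9v, 10d and 13d by the brighter probe set and at 1.88, 2.44 and 1.65 times by the other. Lines 9v, 10d and 13d lay within 1.28-fold of each other by the brighter and within 1.48-fold by the other probe set. Between 10d and 9v the direction was not the same for both, with ratios of 1.09 and 0.772. In 14d against 10d the difference passed 2-fold as deposited, but by the brighter probe set (log2 difference 1.17) not after median centring of the arrays, which raises 10d by 0.19 on the log2 scale. By the other probe set, with a log2 difference of 1.29, it passed either way. Of all genes detected, 26.8% had a larger span than Cdh2.

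The remaining type I members, Cdh3 (P-cadherin) and Cdh4 (R-cadherin), were not detected. Their 5 probe sets had intensities between 5 and 8 in all lines. Line 13d, in which Cdh1 was detected, had 8 and 6 by the Cdh3 probe sets, the same as every other line.

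Of the type II cadherins, Cdh19, a gene of neural crest derivatives and of the Schwann cell lineage, was the 1 that was detected. Its probe set had an intensity of 4906 in 9v, 8492 in 10d, 7637 in 13d and 5248 in 14d. The lines fell in the order 10d, 13d, 14d and 9v, and no line was 2-fold from another. Line 10d was 1.73 times and 13d 1.56 times 9v, whereas 14d was 1.07 times 9v and 13d was 0.899 times 10d. Of all genes detected, 53.7% had a larger span than Cdh19. Schwann cell markers were low in all lines, with 2 of 7 detected (Foxd3, at 54 in 9v, 67 in 10d and 23 in both other lines, and Pmp2, at 44, 54, 15 and 9 in 9v, 10d, 13d and 14d), while Mbp lay at 7 or 8. The summed intensity of these 7 markers, undetected ones included, was 138 in 9v, 194 in 10d, 77 in 13d and 70 in 14d. A part of such cells in the level of Cdh19 was not tested.

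Cdh5, the cadherin of endothelial junctions, Cdh6, Cdh10 and Cdh11, the last a cadherin of mesenchymal cells, were not detected. Their 10 probe sets lay between 4 and 8. Over all 15 probe sets of the 6 undetected members, 13 had the same value in every line and the other 2 differed by 1 unit. None of 9 endothelial markers was detected in any line. Of 10 fibroblast markers, 2 were detected, Col1a2 with 175 in 9v, 80 in 10d, 24 in 13d and 17 in 14d, and Postn with 20 to 61, while Col3a1 and Dcn lay at or under 8.

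Cdh13, which encodes the GPI-anchored T-cadherin, had the widest span of the members. The probe set brightest on average had an intensity of 313 in 9v, 38 in 10d, 39 in 13d and 3165 in 14d. Another had 375 in 9v, 12 in 10d, 4 in 13d and 4093 in 14d. One more had 90 in 9v, 10 in 10d, 6 in 13d and 1624 in 14d. All 3 placed the lines in the same way, with 14d highest, 9v next, and 10d and 13d near or under the detection level. Line 14d was 10.1, 10.9 and 18.0 times 9v by the 3 probe sets. Against 10d it was 83.3 times brighter by the first and, counted to the detection level, at least 128-fold and at least 50.8-fold by the others. Line 10d was 8.24-fold lower than 9v by the first and at least 11.7-fold and at least 2.81-fold lower by the others, while 10d and 13d, both near or under 32, could not be told apart. By its brightest probe set, 28 of the 9415 detected genes (0.297%) had a larger span. The last probe set had an intensity of 5 in every line and gave no information on these differences. In assembly GRCm38.p6 Cdh13 overlaps non-coding genes, Gm51555 and Gm31893 among them, and which of them the probes can read was not examined.

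**Figure D2:**
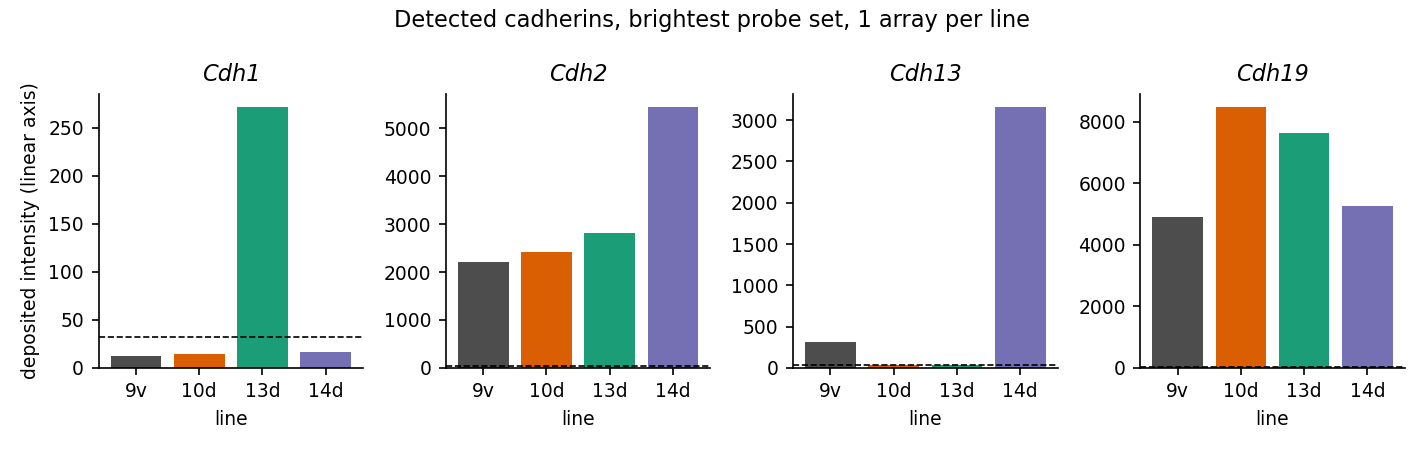
Deposited intensity (linear axis from 0, own scale per gene) of the 4 detected cadherins by their brightest probe sets, 1 bar per line and 1 array per bar, hence without error bars, and with the detection level of 32 as a dashed line. Cdh1 stands out in 13d (272), Cdh13 in 14d (3165) and Cdh2 in 14d (5458), while Cdh19 ranges from 4906 to 8492.

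The comparison of 10d with 9v is the pair of opposite genotype on which labels and article agree. Of the 3 cadherins detected in either line, 1 was at least 2-fold apart, Cdh13, lower in bcat* (10d), beside 17.9% of all genes detected in these lines. Cdh19 had a log2 difference of 0.79 and Cdh2 of 0.13, and Cdh1 was under the detection level in both. The other pairs show how far lines stand apart from each other. In 13d against 9v, 2 of 4 detected members were at least 2-fold apart, Cdh1 and Cdh13, beside 13% of genes, and in 14d against 9v it was 2 of 3, Cdh2 and Cdh13, beside 15.4%. In 13d against 10d, 1 of 4 was apart, Cdh1, beside 14.8%. In 14d against 10d, 2 of 3 were apart, Cdh2 and Cdh13, beside 23.9%, and in 14d against 13d, 2 of 4, Cdh1 and Cdh13, beside 19.7%. These pairs share arrays, so that a line that stands apart enters 3 of them, as 13d does with Cdh1 and 14d with Cdh13. With 3 or 4 members in each pair, these shares rest on 1 or 2 genes.

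Genotype was then compared over all 4 lines with limma, on log2 intensities of the 17423 probe sets detected in at least 1 line, with the lines as replicates. By the labels (10d and 13d bcat*, 9v and 14d WT), Cdh13 had a log2 difference of -4.69 (SE 1.23, limma adjusted p = 0.575) by its brightest probe set and of -7.48 (SE 1.39, limma adjusted p = 0.478) and -5.63 (SE 1.55, limma adjusted p = 0.612) by the others. The values of these other 2 probe sets in 10d and 13d were under the detection level, so that their differences are not measured sizes, and with a pseudocount of 16 they were -5.74 and -4.12. Both WT lines lay above both bcat* lines in each of these probe sets, but the WT lines themselves stood 10.1-fold or more apart. Cdh19 had a log2 difference of 0.67 (SE 0.24, limma adjusted p = 0.683), without overlap of the lines. Cdh2 had a log2 difference of -0.41 (SE 0.53, limma adjusted p = 0.842) and Cdh1 of 2.15 (SE 1.57, limma adjusted p = 0.759), and for both the groups overlapped or were level with each other at 32. The difference of Cdh1 rests on values under that level in 3 lines and was 1.63 with the pseudocount. No member passed an adjusted p of 0.05, nor did any of the 17423 probe sets (0%), while 1287 of them, 3 of the 7 detected member probe sets included, had an unadjusted p under 0.05. Those 3 were the probe sets of Cdh13.

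By the article's reading (10d and 14d bcat*, 9v and 13d WT), again no probe set passed (0%), and 648 had an unadjusted p under 0.05, none of them of a cadherin. Cdh13 then had a log2 difference of 1.65 (SE 2.60, limma adjusted p = 0.973), Cdh1 of -1.93 (SE 1.67, limma adjusted p = 0.969), Cdh2 of 0.54 (SE 0.51, limma adjusted p = 0.969) and Cdh19 of 0.13 (SE 0.42, limma adjusted p = 0.984). The sign of Cdh1, Cdh2 and Cdh13 was thus opposite in the 2 readings. Lines of the 2 genotypes did not overlap for 2 of the 4 detected members by the labels, Cdh13 and Cdh19, beside 37.9% of detected genes. By the article's reading they did so for none of the 4, beside 30.2%. Lines labelled female lay above both male lines for 1 of the 4, Cdh2, and 25.7% of genes did not overlap between the labelled sexes. With 4 members, these counts cannot be told from the shares among all genes.

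Only 2 members spanned at least 4-fold, and for these the genes with the most similar pattern over the 4 lines were sought among all detected genes, by the root mean square difference of centred log2 values raised to the detection level. For Cdh1 they were Tgfb2, Myl9 and Capg, with differences of 0.02, 0.02 and 0.03. Their intensities in 13d were 264, 263 and 261, and all were at 12 or less in the other lines. Since Cdh1 and these genes were raised to 32 in 3 of the 4 lines, the likeness rests on their intensity in 13d alone, and the small differences follow from that. Tgfb2 encodes a transforming growth factor β ligand, Myl9 a regulatory light chain of myosin and Capg an actin-capping protein. For Cdh13 they were Hs6st2, Itga4 and Dbp, with differences of 0.64, 0.69 and 0.70. Hs6st2, a heparan sulfate sulfotransferase gene, had 596 in 9v, 6 in 10d, 111 in 13d and 4491 in 14d. Itga4, an integrin chain gene, had 583 in 9v, 62 in 10d, 4 in 13d and 1852 in 14d, and Dbp, a clock-regulated transcription factor gene, had 653, 137, 79 and 2929 in the same order. With 4 arrays, such likeness is a description of these lines only.

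**Figure D3:**
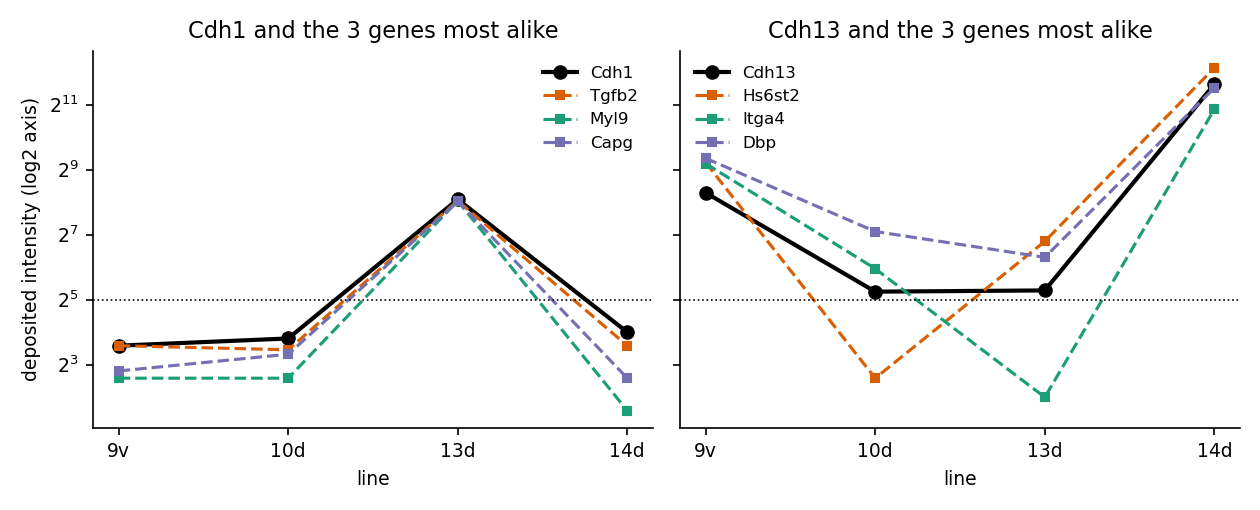
Deposited intensity (log2 axis) by line of Cdh1 and of Cdh13 (black circles) with the 3 genes of most similar pattern (coloured squares), 1 array per line, where the joining lines only connect points of 1 gene and the dotted line is the detection level of 32. Cdh1, Tgfb2, Myl9 and Capg are above that level in 13d alone, between 261 and 272, and Cdh13 and its 3 genes are highest in 14d.

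Among the catenins, the genes of β-, α- and p120-catenin spanned less than 1.5-fold over the lines, and that of γ-catenin spanned 4.23-fold. Ctnnb1, the gene of β-catenin, had an intensity of 30254 in 9v, 31799 in 10d, 34368 in 13d and 31844 in 14d, a span of 1.14-fold. The other Ctnnb1 probe sets had 7210 to 7978 and 9968 to 11288, and it was not tested whether any of the 3 reads the transgene. Ctnna1, the gene of α-catenin, spanned 1.07-fold and Ctnnd1, that of p120-catenin, which stabilises cadherins at the membrane, spanned 1.17-fold. Jup, the gene of γ-catenin, was dim, with 98 in 9v, 117 in 10d, 182 in 13d and 43 in 14d. Of the 27 measured genes of catenins and adherens junction partners, 16 were detected and 6 spanned at least 2-fold, beside 40.1% of all detected genes. The median log2 span of the 16 was 0.45, beside 0.84 for all detected genes. Between 10d and 9v, no detected partner was at least 2-fold higher (median log2 difference 0.02, beside 0 for all genes). Of the 15 partners detected there, 2 were at least 2-fold lower, beside 17.9% of all genes apart in either direction. These were Nectin3, a gene of an immunoglobulin-type adhesion molecule of adherens junctions, with 766 in 9v, 270 in 10d, 789 in 13d and 1130 in 14d, and Actn1, the gene of an actin crosslinker, named after its value was seen, with 2353, 867, 1835 and 2293. Another Nectin3 probe set had 104 in 9v and 46 in 10d. A further Nectin3 probe set had 393 in 9v and 264 in 10d, less than 2-fold apart. Ctnnal1, the gene of an α-catenin-like protein, had 887 in 9v, 1167 in 10d, 1090 in 13d and 294 in 14d.

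Of the 19 measured regulators of cadherin transcription, 10 were detected and 4 spanned at least 2-fold, beside 40.1% of all detected genes. The median log2 span of these 10 was 0.90. Zeb1, which encodes a zinc finger repressor of Cdh1, had an intensity of 30 in 9v, 36 in 10d, 337 in 13d and 11 in 14d. It was thus brightest in 13d, the line in which Cdh1 was detected. Tbx2, a T-box repressor gene, was also highest in 13d, with 1642 beside 823 in 9v, 457 in 10d and 672 in 14d. Ctbp2, the gene of a corepressor, had 3714 in 9v, 1902 in 10d, 3744 in 13d and 6060 in 14d. Snai1 and the Twist genes were not detected. Snai2 (Slug), a neural crest repressor gene named after its value was seen, had 3292 in 9v, 3752 in 10d, 3567 in 13d and 6728 in 14d. Zeb2, a repressor of the same family as Zeb1 and also named after its value was seen, had 1388, 1275, 1393 and 2430 in that order. None of the regulators was 2-fold apart between 10d and 9v, beside 17.9% of all genes detected in these lines. The median log2 difference was 0.05 over 10 genes.

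Of 18 measured genes of cadherin proteolysis and endocytosis, 14 were detected and 5 spanned at least 2-fold, beside 40.1% of all detected genes. The median log2 span of these 14 was 0.76. Adam10, named after its value was seen and the gene of the main sheddase of E- and N-cadherin, ranged from 10690 to 12690. Psen2, the gene of a presenilin, the catalytic part of γ-secretase, had 7480 in 9v, 3157 in 10d, 6027 in 13d and 8115 in 14d and was the 1 gene of the list at least 2-fold apart between 10d and 9v. Mmp2, the gene of a gelatinase, had 4720 in 9v and 5123 in 10d but 13042 in 13d and 13381 in 14d. Pcsk6, the gene of a proprotein convertase, was detected in 14d alone, with 440 beside 10 to 13 in the other lines. The median log2 difference between 10d and 9v was -0.18 over 13 detected genes of this list. Of these 13, 1 was 2-fold apart, beside 17.9% of all genes detected in these lines.

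Most other genes of the cadherin superfamily on the lists examined were not detected, and these lists do not cover the whole superfamily. Of 16 further cadherins and cadherin-related genes, 1 was detected, Cdhr4, which overlaps the non-coding gene 4930535L15Rik in assembly GRCm38.p6, so that its source is uncertain. Cdhr4 had an intensity of 468 in 9v, 1025 in 10d, 642 in 13d and 1400 in 14d, and its other probe set had 452, 1012, 598 and 1225. Cdh7, Cdh8, Cdh9 and Cdh20, type II cadherins like Cdh19, were at 10 or less in all lines. None of 6 desmosomal cadherins was detected. Of 24 genes listed as protocadherins, Fat, Dachsous and flamingo cadherins and calsyntenins, 6 were detected. Ret, a receptor tyrosine kinase gene also on that list, was at 6 in all lines. Of the 6 detected genes, 3 spanned at least 2-fold, beside 40.1% of all detected genes. Among them, Fat1, the gene of a giant cadherin, had 1154 in 9v, 719 in 10d, 1818 in 13d and 1301 in 14d. Pcdh7, a protocadherin gene, had 427 in 9v, 512 in 10d, 632 in 13d and 1001 in 14d by its brightest probe set, but 148, 140, 603 and 268 by another, so that the highest line differed between them. Celsr2, a flamingo cadherin gene, was dim, with 77, 75, 119 and 46 in 9v, 10d, 13d and 14d.

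**Figure D4:**
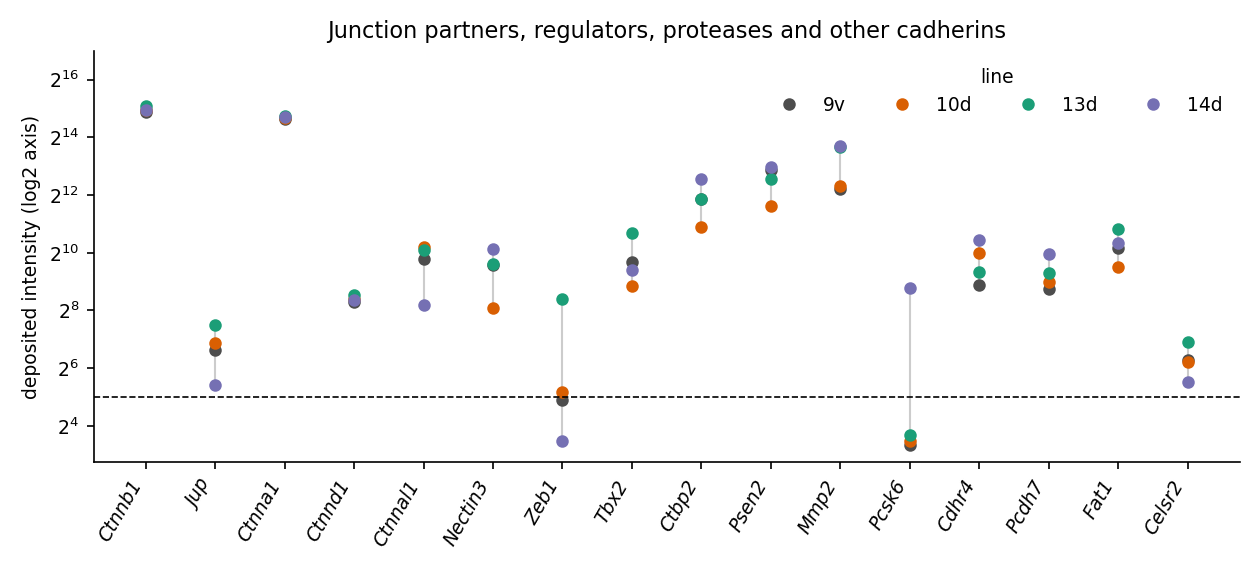
Deposited intensity (log2 axis) of the junction partners, regulators, proteases and other cadherins that the naming rule chose, 1 point per line and array, by the brightest probe set, with the detection level of 32 dashed. Ctnnb1, Ctnna1 and Ctnnd1 lie close together in all lines, while Zeb1 stands out in 13d (337) and Pcsk6 in 14d (440). Heights of different genes are not comparable.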

How the data were processed

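Total RNA of 4 melanocyte lines was biotin-labelled and hybridised to Affymetrix arrays, 1 per line. For every probe set the authors deposited an intensity as a whole number, so that ratios of dim probe sets are coarse. The submitters' processing notes name GCRMA, a background correction and normalization method. Its version is not given in the sources used here, and the linear scale was inferred from the numbers themselves. The number of arrays limits the precision.

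Of 45037 probe sets, 34945 had 1 gene in the platform annotation, 932 had several and 9160 were not listed, and 34741 had their gene in a RefSeq table of assembly GRCm38.p6. Values were converted to log2. Each gene is given by its brightest probe set (highest mean log2). Values under 32 were raised to 32 for folds, given then as at least, and for counts of genes. limma (lmFit, eBayes) was run on probe sets that reached 32 in any line, with Benjamini-Hochberg adjustment across all of them. The fit was also run on simulated data with changes of 2-fold and 4-fold. The spread between lines was set there and not taken from these lines, so it cannot show the power in these data. The lines served as replicates, so p-values measure the spread between lines.

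The members and lists were chosen with earlier results of these data known. The text names all members, up to 3 detected genes per list with the largest span, 4 catenin genes, and for members spanning 4-fold or more the 3 genes most alike. Other genes, such as the markers and relatives given as not detected, were named after their values were seen. Alternatives were other gene summaries, normalizations, detection levels, fold thresholds, pseudocounts and limma settings. Tools were limma 3.58.1 in R 4.3.3, and pandas 2.3.3 in Python 3.11.15.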

Additional observations from a re-analysis of the deposited data

How the results depend on the processing

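The labels give no replicate numbers that pair these lines, so the main comparison was unpaired. Under both readings each labelled sex holds 1 line of each genotype, and with sex as a block limma called 0 probe sets in either, with Cdh13 at -4.69 (SE 0.96, adjusted p = 0.625) by the labels. The median log2 value was 2.81 in 10d and 3.00 in the other lines, so that median centring raises 10d by 0.19, and 1 member was then at least 2-fold apart in 14d against 10d. At a threshold of 1.5-fold, 2 members were apart in 10d against 9v, Cdh13 and Cdh19. Cdh19 also passed 1.5-fold in 13d against 9v and in 14d against 10d, and Cdh2 in 14d against 13d. At 3-fold, 1 member was apart in 14d against 9v and 1 in 14d against 10d, Cdh13 in both. The share of all genes was counted at 2-fold on the deposited values only, so none stands beside these counts. Without probe sets whose names mark alternative or shared transcripts, which drops the brightest of Cdh13, its log2 span, with values not raised to 32, was 10.0 and its log2 difference of 10d over 9v -4.97, both set by values under the detection level and hence not measured sizes. Of the 110 measured genes in the 6 lists other than cell type markers, 4 were apart in 10d against 9v and 19 spanned 2-fold over the lines. The shares among all detected genes were 17.9% and 40.1%, whereas not all of the 110 were detected. The counts of 4 and 19 became 2 and 12 when probe sets of a gene were averaged, 8 and 30 at 1.5-fold, and 0 and 7 at 3-fold. Without a filter on dim probe sets, limma called 791 of 45037 probe sets by the labelled genotype and 209 by the article's. Of the 23 member probe sets, 0 were called in either. That run included undetected probe sets with equal whole numbers in all lines, such as those of Cdh3, with an SE of 3e-04. Its calls are therefore not read as differences between genotypes.

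Leaving out each line in turn leaves a genotype with 1 line, assumed to vary like the other pair. It gave 0 called probe sets throughout. By the labels, the log2 difference then ranged from -6.36 to -3.02 for Cdh13, from 0.59 to 0.74 for Cdh19, from 0.01 to 4.29 for Cdh1 and from -1.06 to 0.24 for Cdh2, which changed sign without 14d. By the article's reading it ranged from -1.54 to 4.84 for Cdh13, which changed sign without 14d, from -4.18 to 0.32 for Cdh1, without 13d, from -0.05 to 1.13 for Cdh2, without 14d, and from -0.22 to 0.47 for Cdh19, without 9v or 10d. The cause was not tested. Apart from the changes named here, the other alternatives kept the direction of the 4 members by their brightest probe sets and their side of the threshold. With the probe sets of a gene averaged, the log2 difference of Cdh2 in 10d over 9v was -0.12, beside 0.13 by the brightest. Intensities near 32 limit what Cdh1 outside 13d, or Cdh13 in 10d and 13d, can show.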

Other observations

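The genes that lie beside the detected members in assembly GRCm38.p6 were examined after the members' values had been seen. Only the nearest on each side are given, and the next ones further out, also looked at, are left out. The nearest measured protein-coding genes on either side of Cdh1 are Cdh3, at 8 in all lines, and Tango6, with an intensity of 38 in 9v, 53 in 10d, 66 in 13d and 38 in 14d. Tango6, like Cdh1, was highest in 13d, but spanned 1.74-fold. Those beside Cdh13 are Mphosph6, with 669 in 9v, 755 in 10d, 1286 in 13d and 547 in 14d, and Hsbp1, which spanned 1.30-fold. Neither was highest in 14d, the line in which Cdh13 was brightest. Beside Cdh19 lie Cdh7, at 8 in all lines, and Dsel, with 211 in 9v, 201 in 10d, 499 in 13d and 275 in 14d. Dsel was highest in 13d, whereas Cdh19 was highest in 10d. Beside Cdh2 lie Chst9, at 6 in all lines, and Dsc3, at 7 in all lines, neither of them detected.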
